A study of Caenorhabditis elegans with 12 samples.

Results

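mir-34 and mir-246 are microRNA genes of Caenorhabditis elegans that have been linked to stress resistance and lifespan. Every mature arm whose name begins with cel-miR-34- or cel-miR-246- was taken from the table, which gave 4 of the 213 measured microRNAs: cel-miR-34-5p and cel-miR-34-3p, and cel-miR-246-3p and cel-miR-246-5p, written without the species prefix from here on. The genes were chosen for that known link, not for their values here, although earlier results of these data were known. Each hairpin precursor is cut into a pair of arms, of which one, the guide, is usually kept in the silencing complex and the other, the passenger, is mostly degraded. miR-34-5p and miR-246-3p were the more abundant arms in each of the 12 libraries and are called the guides below.

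A microRNA guide pairs through its seed with sites in messenger RNAs and lowers their translation and stability. The miR-34 family is conserved from nematodes to mammals, where p53 activates it. In worms mir-34 has been studied in the response to radiation, in developmental robustness and in ageing, where its loss has been reported to lengthen life. mir-246 is active in the gonadal sheath, and its loss has been reported to shorten life and lower stress resistance.

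The libraries were made from small RNA of whole worms of the wild-type strain N2 (genotype wildtype) and of the strain MT12993, labelled mir-71(n4115). That allele deletes mir-71, a microRNA gene that promotes long life. Both strains were sampled at day 0 and at day 5 of adulthood, with 3 libraries, given as biological triplicates, in each of the 4 groups. All 4 groups grew at 20 °C, and worms were moved soon after the last moult to plates with 0.1 mg/mL 5-fluorodeoxyuridine, a blocker of DNA synthesis that keeps progeny from developing. The mutant group is 1 allele in 1 strain. The comparisons ask how each arm changes with adult age and whether the loss of mir-71 alters its level or its change. The age and strain comparisons draw on the same 12 libraries, so their values are not independent of each other.

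Read numbers over the measured microRNAs, taken from the smallest step between values in a library, ran from 917170 to 4070663 per library. The library medians of the normalised counts ran from 77.1 to 290, so libraries differed in overall level under the authors' scaling. Markers of muscle (miR-1-3p), intestine (miR-60-3p), and epidermis and glia (miR-228-5p) were present in each library, and the neuronal lsy-6 and miR-124-3p summed to 6.13 to 98.7 normalised counts. In whole worms, fewer cells of a type and less RNA per cell cannot be told apart.

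mir-34 lies on chromosome X at 2969752 to 2969848 of WBcel235 (97 bases, minus strand, WBGene00003262), and no annotated gene overlaps it. The nearest protein-coding gene is gbb-1, 1560 bases away on the plus strand, and the nearest other microRNA gene, mir-359, is 34443 bases away. mir-246 lies on chromosome IV at 10940134 to 10940230 (97 bases, plus strand, WBGene00003340), and again no annotated gene overlaps it. It starts 200 bases past the end of fic-1, a protein-coding gene on the same strand, and its nearest microRNA neighbour, mir-2210, is 25456 bases away. Neither gene is therefore part of a close microRNA cluster in this annotation.

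The guide of mir-34 rose with age in both strains. In N2, miR-34-5p stood at 644, 305 and 420 normalised counts in replicates 1, 2 and 3 at day 0, and at 967, 1135 and 2125 at day 5. Each N2 library of day 5 lay above each N2 library of day 0, with replicate 3 of day 5 the highest. In the mutants it stood at 1046, 305 and 593 at day 0, and at 4479, 2134 and 2434 at day 5. Again the groups did not overlap, and replicate 1 was the highest mutant library at either age.

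The log2 change of miR-34-5p with age was 1.61 ± 0.50 in N2 (SE, n = 3 against 3, limma adjusted p = 0.0348), a 3.04-fold rise. In the mutants it was 2.31 ± 0.50 (limma adjusted p = 0.0096), a 4.97-fold rise. Averaged over the strains the rise was 1.96 ± 0.36, with a 95% interval of 1.20 to 2.71 (limma adjusted p = 0.000955). It was the 22nd highest of 213 changes in N2 and the 11th highest in the mutants. In N2, 16 of 213 microRNAs (7.51%) were called higher at day 5, and 26 (12.2%) had all N2 libraries of day 5 above those of day 0. In the mutants these were 21 (9.86%) and 39 (18.3%). Of the 4 arms, miR-34-5p alone was called in N2 and in the mutants in the fit of all 12 libraries.

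The call in N2 rested on few libraries. Without replicate 2 of N2 at day 0 the change was 1.35 (limma adjusted p = 0.142), without replicate 3 of day 0 it was 1.58 (0.0828), without replicate 2 of day 5 it was 1.72 (0.0621) and without replicate 3 of day 5 it was 1.27 (0.109). The call in the mutants held whichever of the 12 libraries was left out, and was lost when the mutant groups were fitted alone (2.31, limma adjusted p = 0.0802). The averaged rise was called under each alternative tried, with values from 1.15 with the deposited log2 table to 2.18 with library medians.

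**Figure D1:**
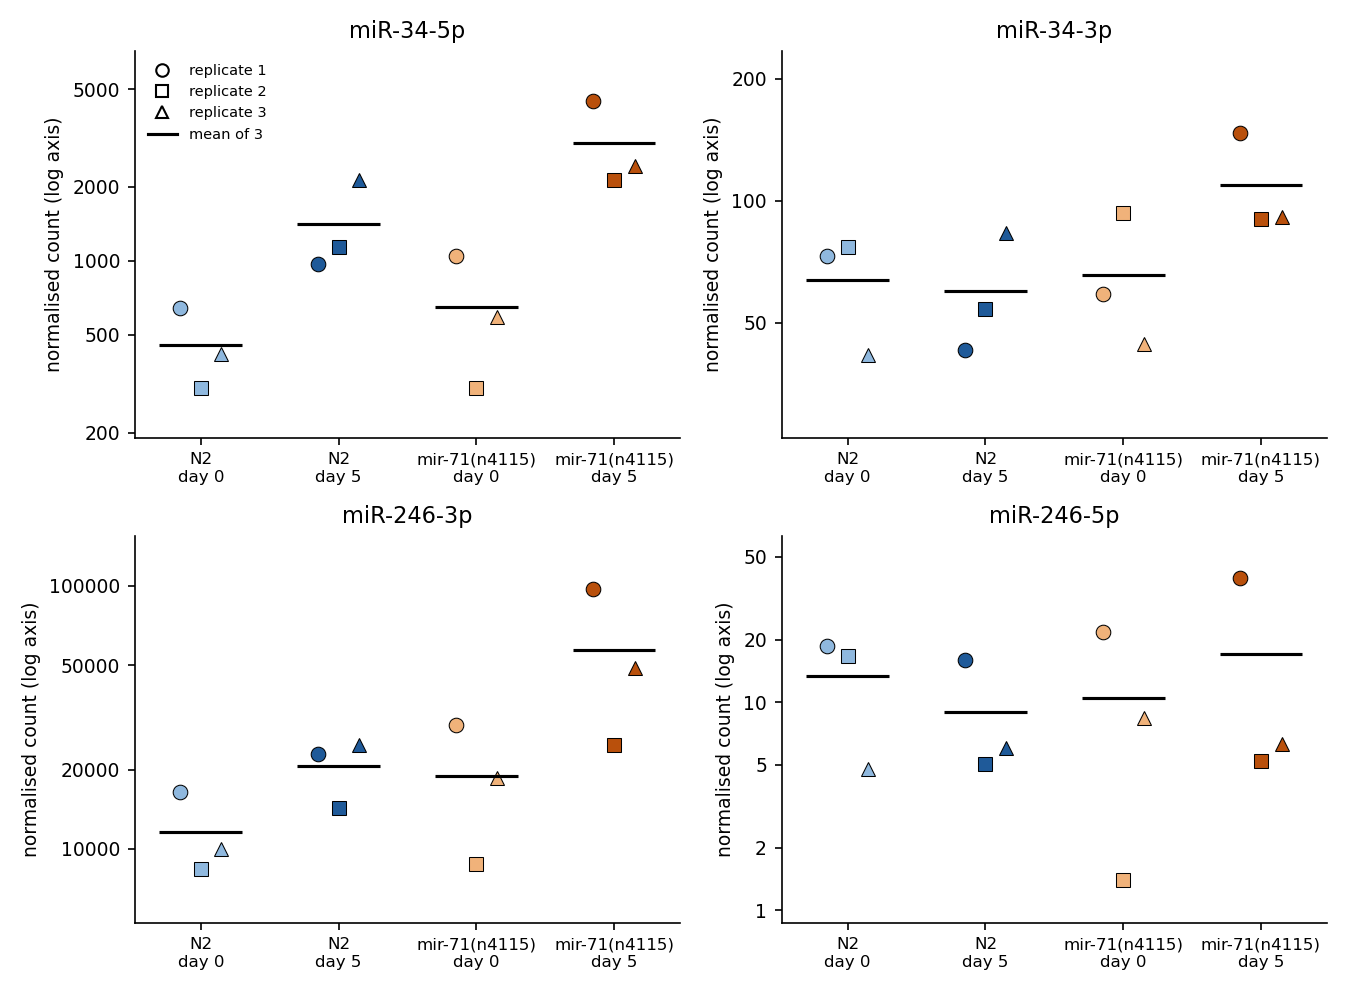
Normalised counts (log axis) of the 4 arms in the 12 libraries, with marker shapes for replicate numbers and lines for group means (n = 3). miR-34-5p rises from 305 to 644 at day 0 to 967 to 2125 at day 5 in N2 and the mutant libraries of day 5 lie at 2134 and above, while miR-34-3p stays between 41.5 and 147 in all groups.

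miR-34-3p, the passenger arm, showed no such separation. It stood at 73.2, 77.0 and 41.5 normalised counts in N2 at day 0 and at 42.9, 54.0 and 83.0 at day 5. Mutant libraries held 58.8, 93.2 and 44.2 at day 0 and 147, 90.4 and 91.3 at day 5. The ages overlapped in both strains. The log2 change was −0.09 ± 0.44 in N2 (SE, limma adjusted p = 0.903) and 0.76 ± 0.44 in the mutants (limma adjusted p = 0.253), so neither passed. The sign in N2 depended on the scaling, at 0.44 when libraries were scaled by the trimmed mean of M-values (TMM) or by their medians.

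Apart from the pseudocount, the guide-to-passenger ratio within a library does not depend on how libraries were scaled. The ratio of miR-34-5p to miR-34-3p was 8.80, 3.96 and 10.1 in N2 at day 0 and 22.5, 21.0 and 25.6 at day 5. Among the mutants it was 17.8, 3.27 and 13.4 at day 0 and 30.5, 23.6 and 26.7 at day 5. All 6 libraries of day 5 lay above all 6 of day 0, and replicate 2 was the lowest of each strain at day 0. Of the 62 genes with both arms measured, 8 (12.9%) had a ratio that was higher at day 5 without overlap in this way. These ratios were examined after the values of the arms had been seen.

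Averaged over the strains, the log2 guide-to-passenger ratio of mir-34 rose by 1.62 ± 0.42 between day 0 and day 5 (SE, limma adjusted p = 0.00972 over 62 genes), a 3.08-fold rise. In the same test 20 of 62 ratios (32.3%) were called higher and the median change over all genes was 0.36. Within single strains the change was 1.70 ± 0.59 in N2 (limma adjusted p = 0.0639) and 1.55 ± 0.59 in the mutants (limma adjusted p = 0.0829), neither past the threshold, against 8 of 62 ratios (12.9%) called higher in N2 and 6 (9.68%) in the mutants. The mutant value passed with the replicate number as a block (limma adjusted p = 0.0403). It also passed when replicate 1 of day 0 was left out (2.02, limma adjusted p = 0.038). The N2 value passed without replicate 2 of the mutants at day 0 (limma adjusted p = 0.0104). The change did not differ detectably between strains (difference −0.15 ± 0.83, 95% interval −1.94 to 1.64, limma adjusted p = 0.999), and 0 of 61 ratios (0%) were called in that comparison, mir-71 left out.

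The guide of mir-246 was also higher at day 5, by less. In N2, miR-246-3p stood at 16437, 8382 and 10028 normalised counts in replicates 1, 2 and 3 at day 0, and at 23047, 14318 and 24871 at day 5. The groups overlapped, because replicate 2 of day 5 lay below replicate 1 of day 0. The mutant values were 29602, 8744 and 18638 at day 0 and 97084, 24772 and 48726 at day 5. These groups overlapped as well, with replicate 1 the highest and replicate 2 the lowest at both ages. By replicate number, the day 5 value was above the day 0 value in 3 of 3 mutant pairs, at 3.28, 2.83 and 2.61 times. In N2, where no pairing was assumed, the same-numbered ratios were 1.40, 1.71 and 2.48. The normalised library totals also rose in the mutant pairs, from 3.02e+06 to 5.02e+06, 1.28e+06 to 1.87e+06 and 1.98e+06 to 2.49e+06. The share of all microRNAs that rose in 3 of 3 pairs was not counted.

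The log2 change of miR-246-3p was 0.86 ± 0.54 in N2 (SE, n = 3 against 3, limma adjusted p = 0.268) and 1.53 ± 0.54 in the mutants (limma adjusted p = 0.0783), and neither passed the test under the authors' scaling. Across ages in the mutants, deviations from group means correlated at 0.111 to 0.37 between same-numbered libraries and at −0.487 to 0.273 between others. The ranges overlapped, and the pairing was read from these same data. With the replicate number as a block within strain the mutant change was called (limma adjusted p = 0.000301). That block also raised the number of called microRNAs in the mutants from 29 to 75. Averaged over the strains miR-246-3p rose by 1.20 ± 0.39, a 2.29-fold rise (limma adjusted p = 0.0282). In that comparison 35 of 213 microRNAs (16.4%) were called higher, among them 2 of the 4 arms, and 37 (17.4%) lower, with none of the 4 arms among them. The mutant change was also called without replicate 1 of the mutants at day 0 (1.94, limma adjusted p = 0.0246) or replicate 2 at day 5 (2.03, limma adjusted p = 0.0303).

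The averaged call of miR-246-3p was close to the threshold. It was lost in 6 of 12 cases when a library was left out, namely replicate 2 (1.09, limma adjusted p = 0.0706) or 3 (1.16, 0.0576) of N2 at day 0, replicate 1 (1.15, 0.0503) or 3 (1.12, 0.0671) of N2 at day 5, and replicate 1 (0.95, 0.0514) or 3 (1.20, 0.06) of the mutants at day 5. Rescaling the libraries had the opposite effect. miR-246-3p was called higher in each strain with equal totals (0.86 in N2 and 1.00 in the mutants), with TMM (1.40 and 1.20) and with library medians (1.40 and 1.43), with limma adjusted p-values from 0.00208 to 0.0236. In that order 27, 39 and 40 microRNAs were called higher in N2, against 16 under the authors' scaling. In the mutants 24, 24 and 47 were, against 21. With the deposited log2 values miR-246-3p was called in neither strain (0.48 in N2, limma adjusted p = 0.324, and 0.95 in the mutants, 0.0635).

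As a share of the library total, both guides separated the ages in all libraries. miR-246-3p made up 0.702%, 0.527% and 0.639% of the total in N2 at day 0 and 1.08%, 1.07% and 1.22% at day 5. In the mutants it made up 0.979%, 0.685% and 0.939% at day 0 and 1.93%, 1.32% and 1.95% at day 5. miR-34-5p lay between 0.0192% and 0.0346% in the 6 libraries of day 0 and between 0.0455% and 0.114% in the 6 of day 5. On this scale 18 of 213 microRNAs (8.45%) were higher in all 6 day 5 libraries than in all 6 day 0 libraries. Under the authors' scaling 9 (4.23%) were, and neither guide was among them. Divided by the library median, miR-34-5p lay at 2.58 to 4.94 at day 0 and at 9.51 to 19.9 at day 5, and miR-246-3p at 70.9 to 140 and at 186 to 335. On that scale 32 of 213 (15%) were higher in all day 5 libraries.

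**Figure D2:**
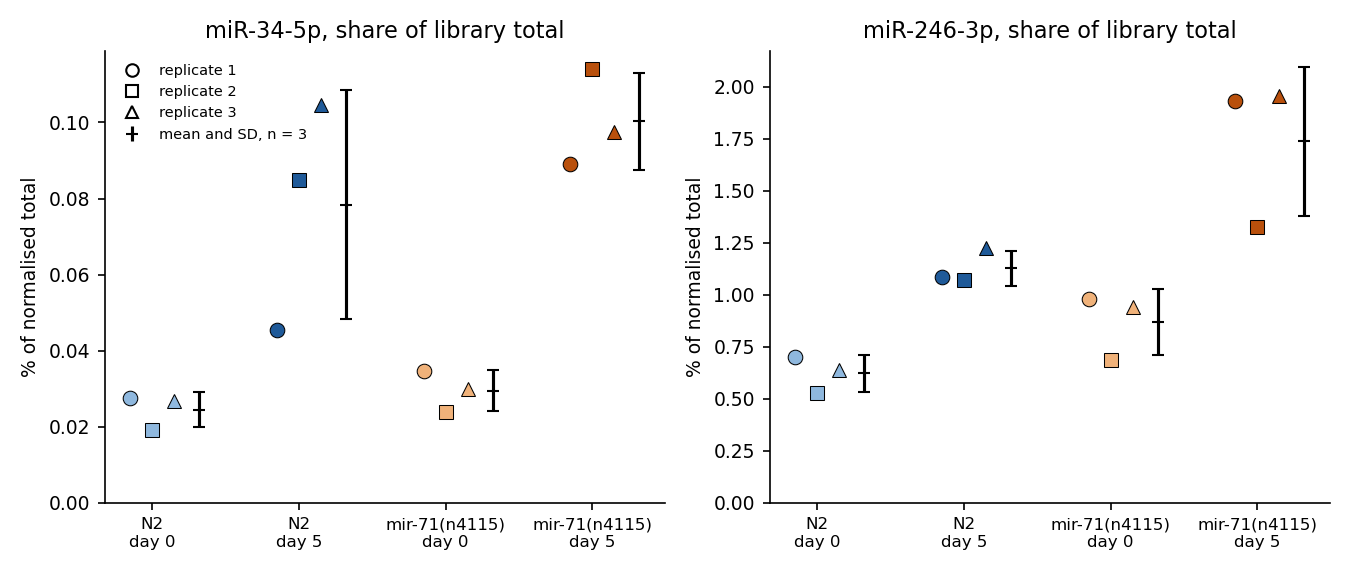
Share of each library's normalised total taken by miR-34-5p and miR-246-3p, with points for libraries and bars for mean and SD (n = 3). The libraries of day 5 lie above those of day 0 in both strains, at 0.0455% and above for miR-34-5p and at 1.07% and above for miR-246-3p.

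Ranked by level within a library, miR-34-5p separated the ages and miR-246-3p did not quite. The share of all microRNAs that separated the ages by rank was not counted. miR-34-5p ranked between 63rd and 80th of 213 at day 0 and between 46th and 53rd at day 5. miR-246-3p ranked between 26th and 35th at day 0 and between 15th and 26th at day 5, with rank 26 in 1 library of either age. Over the 4 groups, the mean of miR-34-5p rose in the order N2 at day 0 (456 ± 172), mutants at day 0 (648 ± 374), N2 at day 5 (1409 ± 626) and mutants at day 5 (3016 ± 1276), as SD over 3 libraries. The first 3 groups overlapped each with its neighbour, and the last pair was separated only by 2125 against 2134. miR-246-3p had the same order, at 11616 ± 4256, 18995 ± 10434, 20746 ± 5641 and 56861 ± 36836, with overlap between all neighbours.

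miR-246-5p, the passenger arm of mir-246, was near the limit of detection. It stood at 18.6, 16.7 and 4.79 normalised counts in N2 at day 0 and at 15.9, 5.06 and 6.05 at day 5. Mutant libraries had 21.7, 1.39 and 8.43 at day 0 and 39.5, 5.19 and 6.26 at day 5. The groups overlapped throughout, and these values come from 1 to 32 reads per library, where counting error alone is large. Its log2 change with age was −0.49 ± 0.87 in N2 (SE, limma adjusted p = 0.731) and 0.61 ± 0.87 in the mutants (limma adjusted p = 0.673).

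The ratio of miR-246-3p to miR-246-5p was 884, 501 and 2095 in N2 at day 0 and 1447, 2828 and 4109 at day 5. Its values were 1364, 6283 and 2212 in mutants at day 0, the second of these resting on 1 read of the passenger, and 2459, 4769 and 7780 at day 5. The ages overlapped in both strains. Averaged over the strains the log2 ratio rose by 1.14 ± 0.42 (SE, limma adjusted p = 0.0429 over 62 genes). The call was lost with a pseudocount of 0.5 (limma adjusted p = 0.0676) and without replicate 1 (1.12) or 2 (0.91) of N2 at day 0, replicate 2 (1.12) or 3 (0.97) of N2 at day 5, replicate 1 (0.96) or 3 (1.11) of the mutants at day 0, or replicate 2 (1.14) or 3 (0.95) of the mutants at day 5.

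The guides did not rise in step. The number of miR-34-5p counts per 100 miR-246-3p counts in the same library was 3.92, 3.63 and 4.19 in N2 at day 0, and 4.19, 7.92 and 8.54 at day 5. Among the mutants it was 3.53, 3.49 and 3.18 at day 0 and 4.61, 8.62 and 4.99 at day 5. At day 0 the libraries of a strain lay close together, with an SD of the log2 ratio of 0.10 in N2 and 0.08 in the mutants, while at day 5 it was 0.56 and 0.49. Replicate 1 was the lowest library of either strain at day 5, and in N2 it lay just above the highest library of day 0.

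Over both strains the log2 ratio of miR-34-5p to miR-246-3p rose by 0.76 with age, a 1.70-fold rise, with p = 0.005 in a two-sided exact permutation test of the day labels within strain. This is the smallest p that the 400 arrangements allow, and it was 0.01 after adjustment for the 2 tests of this ratio. The rise was 0.75 in N2 and 0.78 in the mutants, each at p = 0.1, the smallest that an exact test of 3 against 3 libraries can give. With 1 library left out the averaged rise ran from 0.62 to 0.93, with exact p-values from 0.005 to 0.02. Between strains the log2 ratio differed by −0.19, mutants minus N2 (exact permutation of strain labels within day, p = 0.345). At day 0 alone all 3 mutant libraries lay below all 3 of N2 (difference −0.20, exact p = 0.1).

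**Figure D3:**
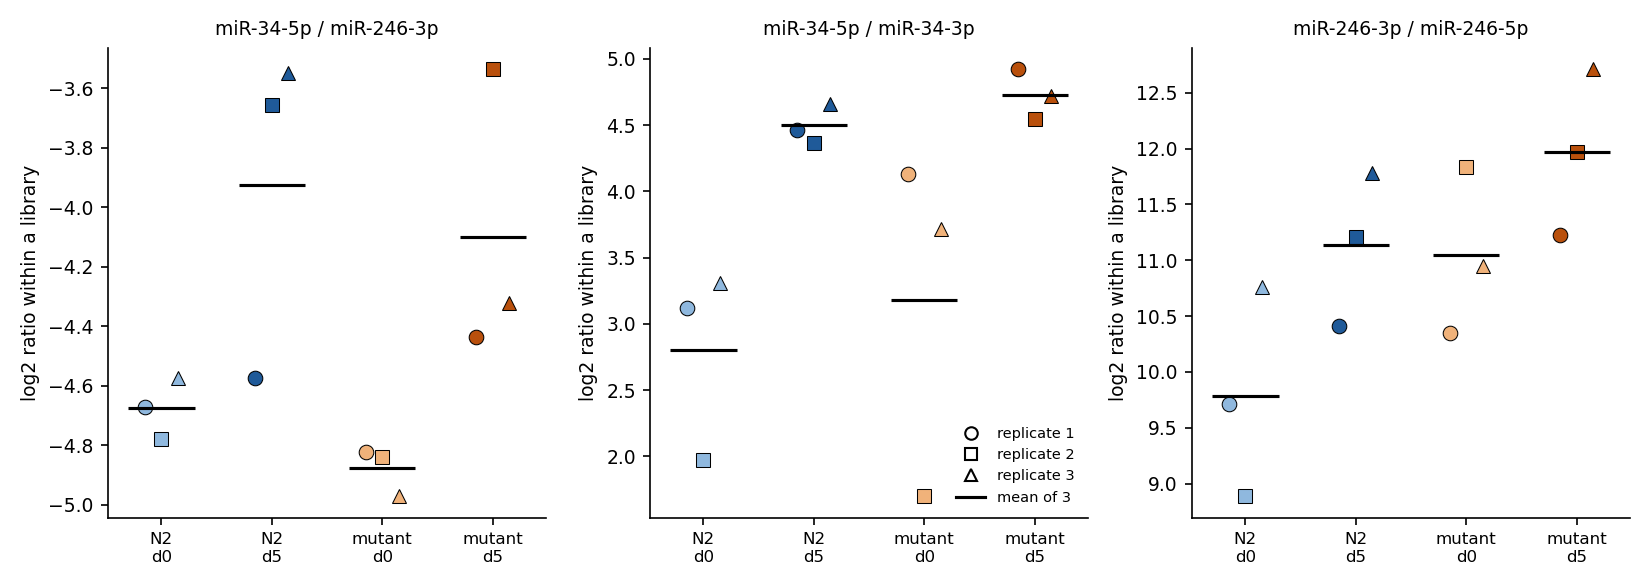
Log2 ratios within each library of the guides (left), of the arms of mir-34 (middle) and of the arms of mir-246 (right), with points for libraries, marker shapes for replicate numbers and lines for group means (n = 3). The ratio of the mir-34 arms is 4.37 or more in all libraries of day 5 and at most 4.13 at day 0.

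No arm was called different between mutants and N2 at day 0. On the log2 scale miR-34-5p differed by 0.40 ± 0.50 (mutants minus N2, SE, n = 3 against 3, 95% interval −0.67 to 1.47) and miR-246-3p by 0.60 ± 0.54 (−0.55 to 1.76), each at a limma adjusted p of 0.966. Leaving out replicate 1 of the mutants at day 0 turned the sign for miR-34-5p, to −0.03. The passenger arms had 0.02 ± 0.44 and −0.66 ± 0.87. limma called 0 of 211 microRNAs (0%) in this comparison, mir-71 left out, with an unadjusted p under 0.05 for 5. These intervals still allow a difference of more than 1 on the log2 scale in either guide.

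At day 5 both guides were higher in the mutants than in N2 by about as much as the median microRNA was. The log2 difference was 1.11 ± 0.50 for miR-34-5p (SE, limma adjusted p = 0.0998) and 1.28 ± 0.54 for miR-246-3p (limma adjusted p = 0.085), against a median of 0.98 over 211 microRNAs. Of these, 48 (22.7%) were called higher and 0 (0%) lower, and none of the 4 arms was called. For miR-34-5p and miR-34-3p the strains did not overlap, as for 87 of 211 microRNAs (41.2%) in that direction. miR-34-3p had 0.87 ± 0.44 and miR-246-5p 0.44 ± 0.87. In the same comparison both neuronal markers were called higher in the mutants, where they summed to 54.5 to 98.7 against 6.13 to 19.9 normalised counts in N2, as was the intestinal miR-60-3p, while those of muscle (1.42) and of epidermis and glia (1.13) were not called. The neuronal values in N2 were near the limit of detection. There 1 read stood for 0.563 to 1.23 normalised counts and 1 value was 0. The part of these markers in the result was not tested.

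Across the strains at day 5, libraries with the same replicate number deviated alike from their group means, as read from these same data. With that number as a block within day both guides were called higher in the mutants (limma adjusted p = 0.0366 for miR-34-5p and 0.0102 for miR-246-3p). Counted in either direction, 97 of 211 microRNAs were called with this block, against 48 without it. miR-246-3p was also called without replicate 2 of the mutants at day 0 (1.28, limma adjusted p = 0.0446) or at day 5 (1.77, limma adjusted p = 0.0263). Rescaling reduced the differences. They were 0.43 and 0.60 with equal totals, 0.26 and 0.44 with library medians, and 0.04 and 0.22 with TMM, for miR-34-5p and miR-246-3p in that order, and none was called.

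The age changes of the arms were not shown to differ between strains. The change in the mutants minus that in N2 was 0.71 ± 0.71 for miR-34-5p (SE, 95% interval −0.80 to 2.22, limma adjusted p = 0.701) and 0.68 ± 0.77 for miR-246-3p (−0.96 to 2.31, limma adjusted p = 0.715). The median over 211 microRNAs was 0.70. With TMM the sign turned, to −0.16 and −0.19. limma called 0 of 211 microRNAs (0%) in this comparison, with an unadjusted p under 0.05 for 25.

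**Figure D4:**
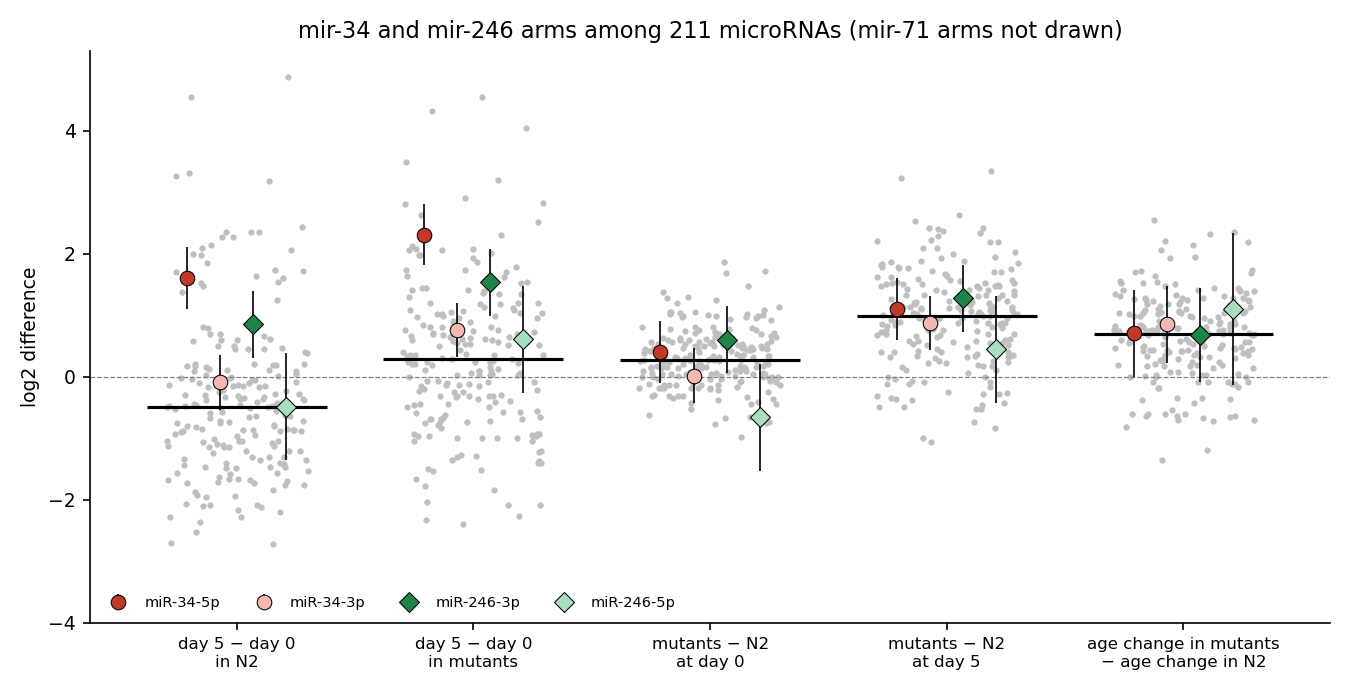
Log2 differences of the 4 arms (coloured, bars are limma SE) among 211 microRNAs (grey points, black line for their median) in 5 comparisons. miR-34-5p and miR-246-3p lie above the median with age in both strains, and near the median of 0.98 between strains at day 5 and of 0.70 for the difference of the age changes.

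The median change with age was −0.48 over all microRNAs in N2 and 0.28 in the mutants, so the level of the whole table moved with the groups. Relative to that median, miR-34-5p had 2.09 in N2 and 2.03 in the mutants. miR-246-3p had 1.34 and 1.25. On this measure the strains lay closer together than on the authors' scale. TMM and library medians each moved the N2 median by 0.51, and equal totals moved the mutant median by −0.52. The split of calls moved with it. In N2, 16 rose and 34 (16%) fell under the authors' scaling, against 27 and 67 with equal totals, 39 and 33 with TMM, and 40 and 35 with library medians. In the mutants 21 rose and 8 (3.76%) fell, against 24 and 47, 24 and 32, and 47 and 28 in that order. Between strains at day 5, 48 were higher and 0 lower in the mutants, against 23 and 5, 9 and 12, and 18 and 11. Averaged over the strains 35 rose and 37 fell with age, against 40 and 87, 50 and 44, and 56 and 41.

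The mir-35 family, whose members are made in the germline and early embryos and are essential there, also moved with age. The summed counts of its 8 measured 3p arms ran from 23098 to 97947 in N2 at day 0 and from 143403 to 238057 at day 5. In the mutants they ran from 14147 to 154730 at day 0 and from 108135 to 346010 at day 5. limma called 4 of 8 higher in N2, 2 of 8 in the mutants and 8 of 8 on average over the strains, and 0 lower in each, against 7.51%, 9.86% and 16.4% of all microRNAs called higher. In the 2 groups of day 0 a value of 0 occurred 3 times among these arms. With age in N2 cel-lsy-6, 1 of the 2 neuronal markers, was called lower (−2.08, limma adjusted p = 0.0447), and the neuronal sum went from 23.4 to 29.8 at day 0 to 6.13 to 19.9 at day 5. These neuronal counts are low, with 1 value of 0 in N2 at day 5. The part of these markers in the changes of mir-34 and mir-246 was not tested.

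The other microRNA genes linked to worm ageing, in a list chosen with earlier results known, were lin-4, mir-228, mir-238, mir-239a, mir-239b and mir-80, with 10 measured arms, and mir-71 itself. With age in N2, 0 of 12 arms, those of mir-71 included, were called higher and 1 lower, with a list median of −0.39 against −0.48 over all microRNAs. The 1 was miR-228-3p, the passenger of the epidermal and glial mir-228, which went from 79.7 ± 9.57 to 23.8 ± 7.16 normalised counts (SD over 3 libraries, log2 change −1.73 ± 0.44 SE, limma adjusted p = 0.0127), and was not called when replicate 2 of either N2 age was left out (−1.68 in both cases). Over all 213 microRNAs 7.51% were called higher and 16% lower in that comparison. In the mutants 3 of 10 arms were called higher and 0 lower, against 9.86% higher and 3.76% lower over all microRNAs, with a list median of 0.55 against 0.28.

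These were miR-238-3p, the abundant guide of a gene whose loss shortens life, and miR-239a-5p and miR-239b-5p, closely similar sequences between which read counting could divide reads. miR-239a-5p went from 28.2 ± 20.3 to 180 ± 88.5 normalised counts in the mutants (SD over 3 libraries, log2 change 2.80 ± 0.72 SE, limma adjusted p = 0.017), and its change in N2, 1.99, missed the threshold (limma adjusted p = 0.0554). miR-239b-5p had 7 reads over the 3 mutant libraries of day 0 and 66 at day 5. Each of these calls was lost when the mutant groups were fitted alone and when 1 of several libraries was left out. That of miR-239b-5p was also lost with a pseudocount of 0.5 (limma adjusted p = 0.0628). On average over the strains 3 of 10 were called higher, the same microRNAs, and miR-228-3p lower, against 16.4% higher and 17.4% lower over all microRNAs. With 1 library left out the averaged call was lost in 9 of 12 cases for miR-228-3p, which also lost it with the deposited log2 values, in 6 for miR-239b-5p, in 4 for miR-238-3p and in 0 for miR-239a-5p. Between strains, 0 of 10 were called at day 0 and 4 of 10 at day 5, all higher in the mutants, as were all 48 of 211 (22.7%) called over the whole table. They were lin-4-5p (1.14), miR-228-3p (1.33), miR-239a-5p (2.53) and miR-239b-5p, with 4 reads in N2 and 66 in the mutants. The calls of lin-4-5p and miR-228-3p were lost under all 3 other scalings, and that of miR-239a-5p with TMM. With 1 library left out they were lost in 9 of 12 cases for lin-4-5p, 8 for miR-228-3p, 4 for miR-239a-5p and 3 for miR-239b-5p.

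Likeness to each guide was described by Pearson's r over the 12 libraries, on log2 values with each library's median subtracted, among 169 other microRNAs with a mean of at least 20. The libraries share the age contrast, and a microRNA that moves with age can score high for that alone. miR-34-5p was most like miR-58-3p (0.95), miR-63-3p (0.94), miR-355 (0.94), miR-243-5p (0.93) and miR-246-3p (0.93). miR-246-3p was most like miR-63-5p (0.97), miR-243-5p (0.95), miR-38-3p (0.95), miR-355 (0.95) and miR-58-3p (0.94), with miR-34-5p 7th at 0.93. Under the authors' scaling 3 of the 5 remained for each guide. miR-246-3p was not among those that remained for miR-34-5p, at rank 9 (0.91), and miR-34-5p ranked 11th for miR-246-3p. The least like, chosen after their values were seen, were miR-230-5p for miR-34-5p (−0.96) and let-7-5p for miR-246-3p (−0.94).

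The passengers did not follow their guides in this ordering. miR-34-3p was most like miR-53-5p (0.90), miR-786-3p (0.87), miR-48-3p (0.85), miR-2214-3p (0.74) and miR-72-3p (0.68). With miR-34-5p, the other arm of its own precursor, it had 0.43, 29th of 169. miR-246-5p, sparse as it was, had 0.23 with miR-246-3p, 54th of 170. Its nearest were miR-61-3p (0.74), miR-90-5p (0.67), miR-84-3p (0.61), miR-77-5p (0.55) and miR-48-5p (0.49).

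**Figure D5:**
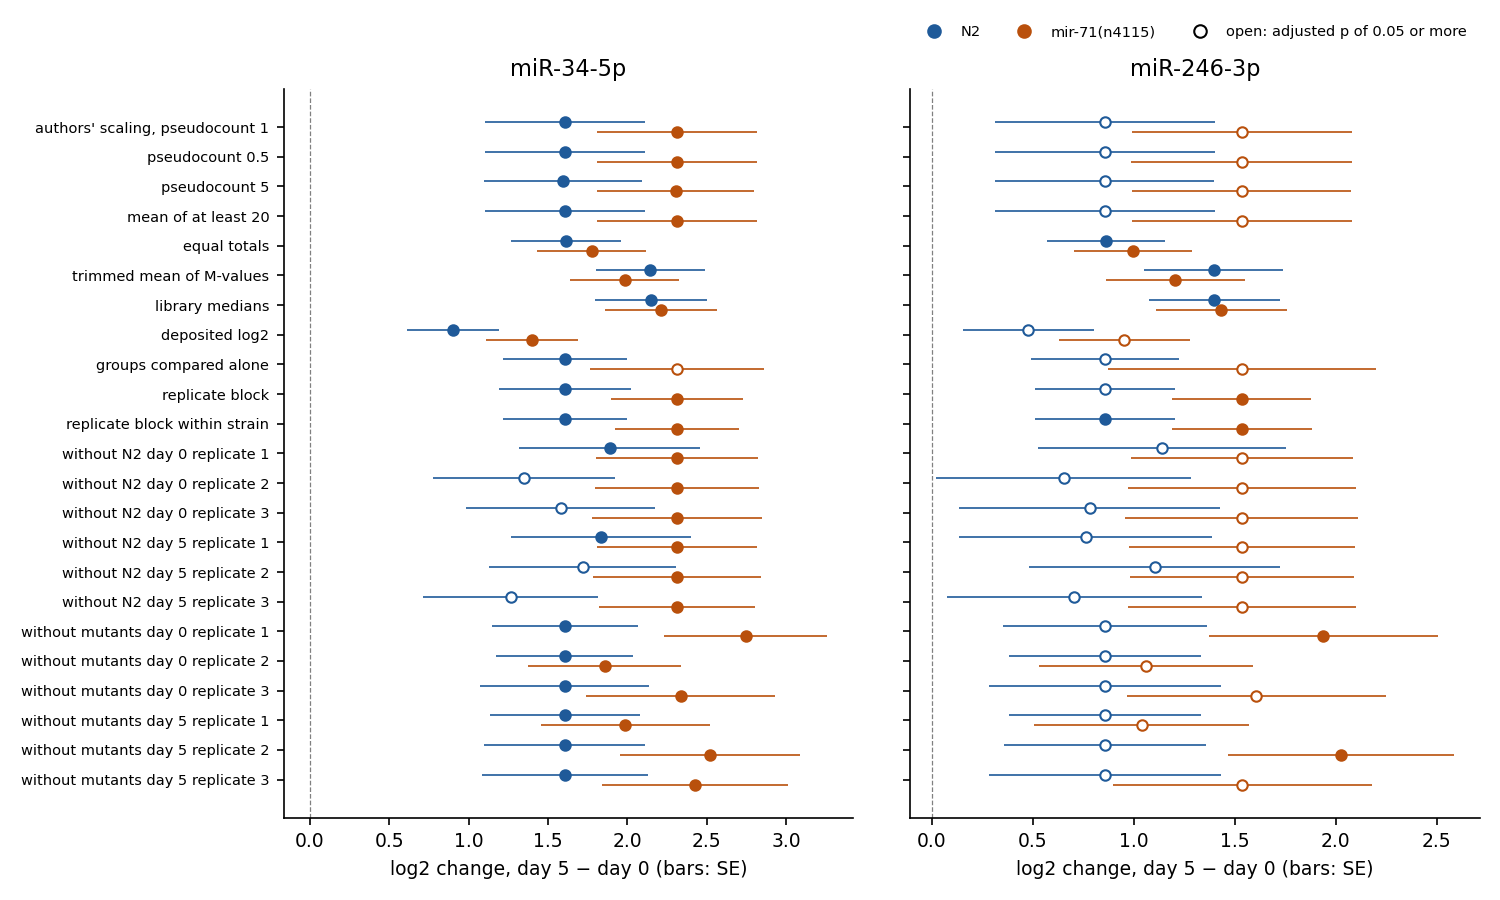
Log2 change between day 5 and day 0 of miR-34-5p and miR-246-3p in N2 (blue) and mir-71(n4115) (orange) under each setting, with bars for limma SE and open points for adjusted p-values of 0.05 or more. All changes are above 0, from 0.48 to 2.74, and miR-246-3p is filled in both strains under equal totals, TMM and library medians.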

How the data were processed

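The submitters' processing notes name STAR 2.4.0h, DESeq2 and the build WBcel235, without roles. How reads were trimmed and counted is not stated there. The authors deposited normalised counts (a signal on a linear scale) of 213 mature microRNAs. They also deposited log2 values by an unstated transformation, used here as an alternative. Within a tolerance of 0.001, 100% of the normalised values were whole multiples of a library's smallest step, taken as 1 read. Too few values are low enough for this to be checked formally, and no count model was run.

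Groups and replicate numbers came from the sample titles. limma 3.58.1 (R 4.3.3) was run with an intensity trend on log2(value + 1), a scale that understates the changes of scarce microRNAs. All 12 libraries shared 1 estimate of spread. Tests were two-sided and adjusted by the Benjamini-Hochberg method over the 213 microRNAs, and an adjusted p under 0.05 was a call. The mir-71 arms were left out of counts between strains. Arm ratios were fitted in the same way over the 62 genes with both arms, and the ratio of the guides was tested by exact permutation. The procedures were tested on simulated data.

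Named here are the 4 arms, called members of the ageing list and the 5 microRNAs most like each arm. Arms, lists and tests were chosen with earlier results of these data known, and the arm ratios were added after the values had been seen. The alternatives were the pseudocount, a filter on low means, 3 scalings, the deposited log2 values, groups fitted alone, replicate blocks (for all groups, within day and within strain) and leaving out each library. Deviations from group means, compared between same-numbered libraries, correlated at 0.248 to 0.569 across strains at day 0, 0.339 to 0.472 across strains at day 5 and 0.111 to 0.37 across ages in the mutants. Between other-numbered libraries the ranges were −0.414 to 0.0382, −0.482 to −0.071 and −0.487 to 0.273 in that order, with overlap in the mutants. The deviations within a group cancel, so the same-numbered and other-numbered values are tied to each other. On this reading of the same data, the numbers were taken to pair those libraries in the replicate blocks only. The main fits and the permutation tests did not use them. Across ages in N2 the range was −0.0178 to 0.125 and no pairing was assumed. Coordinates come from the Ensembl annotation of WBcel235.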

Additional observations from a re-analysis of the deposited data

How the results depend on the processing

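Log2 changes and numbers of called microRNAs are given here. The age changes of both guides kept their direction in each strain under all settings tried. Of the passenger arms, miR-34-3p turned sign with age in N2 but not in the mutants, and miR-246-5p in the mutants but not in N2. With equal totals, trimmed mean of M-values (TMM) and library medians, miR-246-3p became called with age in N2 (0.86, 1.40 and 1.40) and in the mutants (1.00, 1.20 and 1.43). The number called with age in N2 was 94 with equal totals and 79 with groups fitted alone, in the mutants 71, 56 and 75 with the 3 scalings and 3 with groups fitted alone, averaged over the strains 127 with equal totals, and between strains at day 5 28, 21 and 29 with the 3 scalings. With the mutant groups fitted alone, the age change of miR-34-5p (2.31) was no longer called. The sign turned for the difference of the age changes with TMM (miR-34-5p −0.16, miR-34-3p −0.0053, miR-246-3p −0.19), and for miR-34-3p with age in N2 (0.44 with TMM and 0.44 with library medians), between strains at day 0 (−0.11, −0.17 and −0.18 with the 3 scalings) and at day 5 (−0.18 with TMM). For miR-246-5p it turned with age averaged over the strains (−0.16 with equal totals, −0.016 with the deposited log2 values) and between strains at day 5 (−0.18, −0.54 and −0.33 with the 3 scalings). The cause was not tested.

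With the replicate number as a block, one for all groups or one within each strain or day, the estimates did not move and the calls did. In the mutants the age change of miR-246-3p (1.53) became called under both blocks, and 67 and 75 microRNAs were called. At day 5 the strain differences of miR-34-5p (1.11) and miR-246-3p (1.28) became called under both, and 96 and 97 were called. In N2, where the numbers were not taken to pair libraries, the block within strain called miR-246-3p (0.86), and the blocks called 86 and 93. The guide-to-passenger ratio of mir-34 became called under the block for all groups in N2 (1.70) and in the mutants (1.55). The blocks changed no other call of the guides, and the block for all groups, the one run on the guide-to-passenger ratios, changed no other call of those.

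With each library left out in turn, age in N2 ran from 1.27 to 1.89 for miR-34-5p and from −0.37 to 0.12 for miR-34-3p, with 10 to 67 called. In the mutants it ran from 1.04 to 2.03 for miR-246-3p and from −0.26 to 1.36 for miR-246-5p, with 6 to 44 called. The averaged age change ran from 0.95 to 1.44 for miR-246-3p and from −0.38 to 0.44 for miR-246-5p. Between strains at day 0 the range was −0.033 to 0.86 for miR-34-5p, −0.27 to 0.26 for miR-34-3p and −1.41 to 0.21 for miR-246-5p. At day 5 it was 0.78 to 1.77 for miR-246-3p and −0.42 to 0.93 for miR-246-5p, with 1 to 75 called. For the guide-to-passenger ratio of mir-34 the range was 1.28 to 1.95 in N2, 0.81 to 2.02 in the mutants, −0.093 to 1.12 between strains at day 0 and −0.89 to 0.33 for the difference of the age changes, which for mir-246 was −0.91 to 0.026. The passenger arms differed in depth, with 1 to 32 reads of miR-246-5p and 26 to 174 of miR-34-3p in a library. The part of depth in these ranges was not tested.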
